A study of Homo sapiens with 10 samples.

Results

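The transcripts described here encode the enzymes that turn squalene epoxide into lanosterol and lanosterol into cholesterol: LSS, CYP51A1, TM7SF2, MSMO1, NSDHL, HSD17B7, EBP, SC5D and DHCR7. Members were chosen by gene symbol from the pathway's known enzymes, through the transcript accession of each row. All 9 were found, among 24994 genes in all, each as 1 transcript listed in all 10 libraries. All 9 also passed the filter on low counts. The series measured polyadenylated RNA in the human embryonic kidney line HEK293 under the conditions used for crosslinking and immunoprecipitation (CLIP), in which light links RNA to bound protein.

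The 4 replicated groups held 2 libraries each, with the letters A and B. Untreated cells had neither 4-thiouridine (4SU) nor light. The 4SU group received 1 mM 4SU, a uridine analogue that cells build into new RNA, for 12 to 14 h before harvest and no light. The 4SU with 365 nm group received the same 4SU and then ultraviolet light at 365 nm. The 254 nm group received light at 254 nm and no 4SU. Among the libraries analysed here none had 365 nm light without 4SU, or 254 nm light with it. All cells grew as a monolayer in DMEM with 10% fetal calf serum and antibiotics. Each of 2 single libraries was made after siRNA transfection, 1 with an anti-GFP siRNA and 1 with an siRNA to HuR, the RNA-binding protein of the gene ELAVL1. Since the labels leave unsaid whether A and B were grown as separate cultures, a p-value here measures the spread between the libraries at hand, which may be technical.

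Cholesterol is built in the endoplasmic reticulum from acetyl-CoA by way of mevalonate, squalene and lanosterol. When membrane sterol is low, SCAP carries the SREBP transcription factors to the Golgi for cleavage, and the released factor binds promoters of genes along the whole route, usually beside NF-Y and Sp1. INSIG proteins hold SCAP back when sterol is plentiful. Defects in the late enzymes cause inherited disorders, of which DHCR7 deficiency, the Smith-Lemli-Opitz syndrome, is the best known.

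The replicated libraries held 2238569 to 3099769 tags, so 3 tags equal 0.968 to 1.34 counts per 1000000 tags (CPM), and the siRNA libraries held 8688262 and 9016803 tags. Levels below are normalised CPM, which use TMM factors, or, between genes, the deposited expression value in tags per 100 nucleotides (nt) per 1000000 tags. Fold changes are on the log2 scale and come from edgeR's quasi-likelihood test over 13731 genes, called at an adjusted p under 0.05. The tag-weighted median transcript length was 1147 to 1534 nt in the 4 crosslinked libraries and 2373 to 3029 nt in the 4 others. TMM factors were 0.372 to 0.988 in the crosslinked libraries and 1.55 to 1.76 in the others. Scaling by library totals instead moved the median over all genes from -0.50 to -2.40 after 365 nm and from -0.14 to -0.998 after 254 nm, so each change after crosslinking is relative to the TMM scale. HEK293 markers were listed, 10 of 10, with a summed 149.8 to 3092 CPM, although several of them had few tags. KRT8 had at most 8 tags, and VIM had 0 in untreated B and 5 and 4 with GFP and HuR siRNA. PAX2 had 0 tags in 4SU with 365 nm A and EYA1 0 in 4SU with 365 nm B. With GFP siRNA, NEFL had 18059 tags and IRS4 6253, far more than the other markers. Of 8 markers of other cell types, the 5 listed summed to 12.5 to 35.9 CPM, mostly COL1A1, and 2 of them had at most 3 tags in every library. In bulk RNA, fewer cells with a transcript and less of it per cell cannot be told apart.

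The sequences before the start sites were read because SREBP, NF-Y and Sp1 act there. Windows from 250 bases before to 50 after a start, from RefSeq on GRCh38.p14, were matched by symbol for 9 of 9 members (11 windows, since DHCR7 and SC5D have 2 each). Both strands were searched, and matches were counted whether or not they overlapped another motif. CCAAT, the NF-Y box, lay in 9 of the 11 member windows (8 of 9 members, all but CYP51A1) and in 34.6% of all 35116 promoter windows. GGGCGG, the Sp1 box, lay in 9 of the 11 member windows (8 of 9 members, all but NSDHL) and in 44.95% of all windows. TCACNCCAC, a strict form of the sterol element, lay in 0 of 9 members' windows and in 1.13% of all windows, which says only that these letters are not there. Below are the 250 bases before the start, 5′ to 3′ on the gene's strand, of LSS at chr21:46228775-46229024 (minus strand), the member called lower with 4SU, of MSMO1 at chr4:165327419-165327668 (plus strand), the member with the largest fold change, and of EBP at chrX:48521558-48521807 (plus strand), the member with the highest level. Capitals mark CCAAT or its complement ATTGG, of which LSS has 1, MSMO1 4 and EBP 3.
LSS: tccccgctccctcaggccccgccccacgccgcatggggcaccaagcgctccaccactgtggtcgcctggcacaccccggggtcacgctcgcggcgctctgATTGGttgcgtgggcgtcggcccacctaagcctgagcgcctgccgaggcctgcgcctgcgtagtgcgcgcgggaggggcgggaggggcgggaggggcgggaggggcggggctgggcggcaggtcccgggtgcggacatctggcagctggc
MSMO1: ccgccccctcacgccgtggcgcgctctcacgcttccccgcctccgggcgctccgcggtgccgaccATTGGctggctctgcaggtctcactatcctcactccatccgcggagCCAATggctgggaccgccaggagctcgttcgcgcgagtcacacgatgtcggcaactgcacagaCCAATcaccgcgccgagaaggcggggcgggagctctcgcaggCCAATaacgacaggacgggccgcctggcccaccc
EBP: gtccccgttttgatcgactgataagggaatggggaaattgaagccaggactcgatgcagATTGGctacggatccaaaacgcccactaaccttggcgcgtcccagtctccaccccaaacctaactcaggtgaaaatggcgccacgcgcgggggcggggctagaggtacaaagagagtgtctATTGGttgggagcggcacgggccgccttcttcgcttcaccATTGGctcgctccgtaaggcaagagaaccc

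In untreated cells the members spanned a wide range of levels per length. EBP, the sterol isomerase that shifts a ring double bond, stood highest, with a deposited expression value of 17.9 ± 3.97 (SD, n = 2). LSS had 5.75 ± 1.78, DHCR7 5.42 ± 1.32 and NSDHL 5.35 ± 0.328. These 3 neighbours differed by less than their spread. TM7SF2 followed with 3.74 ± 1.96, CYP51A1 with 2.74 ± 0.897 and MSMO1 with 2.57 ± 0.356, again without a gap beyond the spread. SC5D had 1.61 ± 0.463, and HSD17B7, the reductase that acts after each methyl group at carbon C4 is lost, stood lowest with 0.388 ± 0.0478. The steps from EBP to LSS, from MSMO1 to SC5D and from SC5D to HSD17B7 each exceeded the SD of either neighbour. These levels divide by the deposited length, which for EBP, SC5D, HSD17B7 and TM7SF2 differed by more than 5% from the GENCODE transcript. The gap was widest for SC5D, 7019 nt deposited against 2258 nt, so its place below MSMO1 is uncertain. In the siRNA libraries EBP was again highest, with 10.5 with GFP siRNA and 15.3 with HuR siRNA, and HSD17B7 lowest, with 0.323 and 0.235. EBP also led in every crosslinked library, with 19.5 and 27.0 in the 4SU with 365 nm libraries, and 34.6 and 36.8 in the 254 nm ones. Tags shared with other transcripts were split for CYP51A1 and HSD17B7 (fractional counts in 6 of 10 libraries each), MSMO1 (4 libraries) and SC5D (2), so their values are less certain than those of the other members. CYP51A1 and HSD17B7 have close pseudogene copies.

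**Figure D1:**
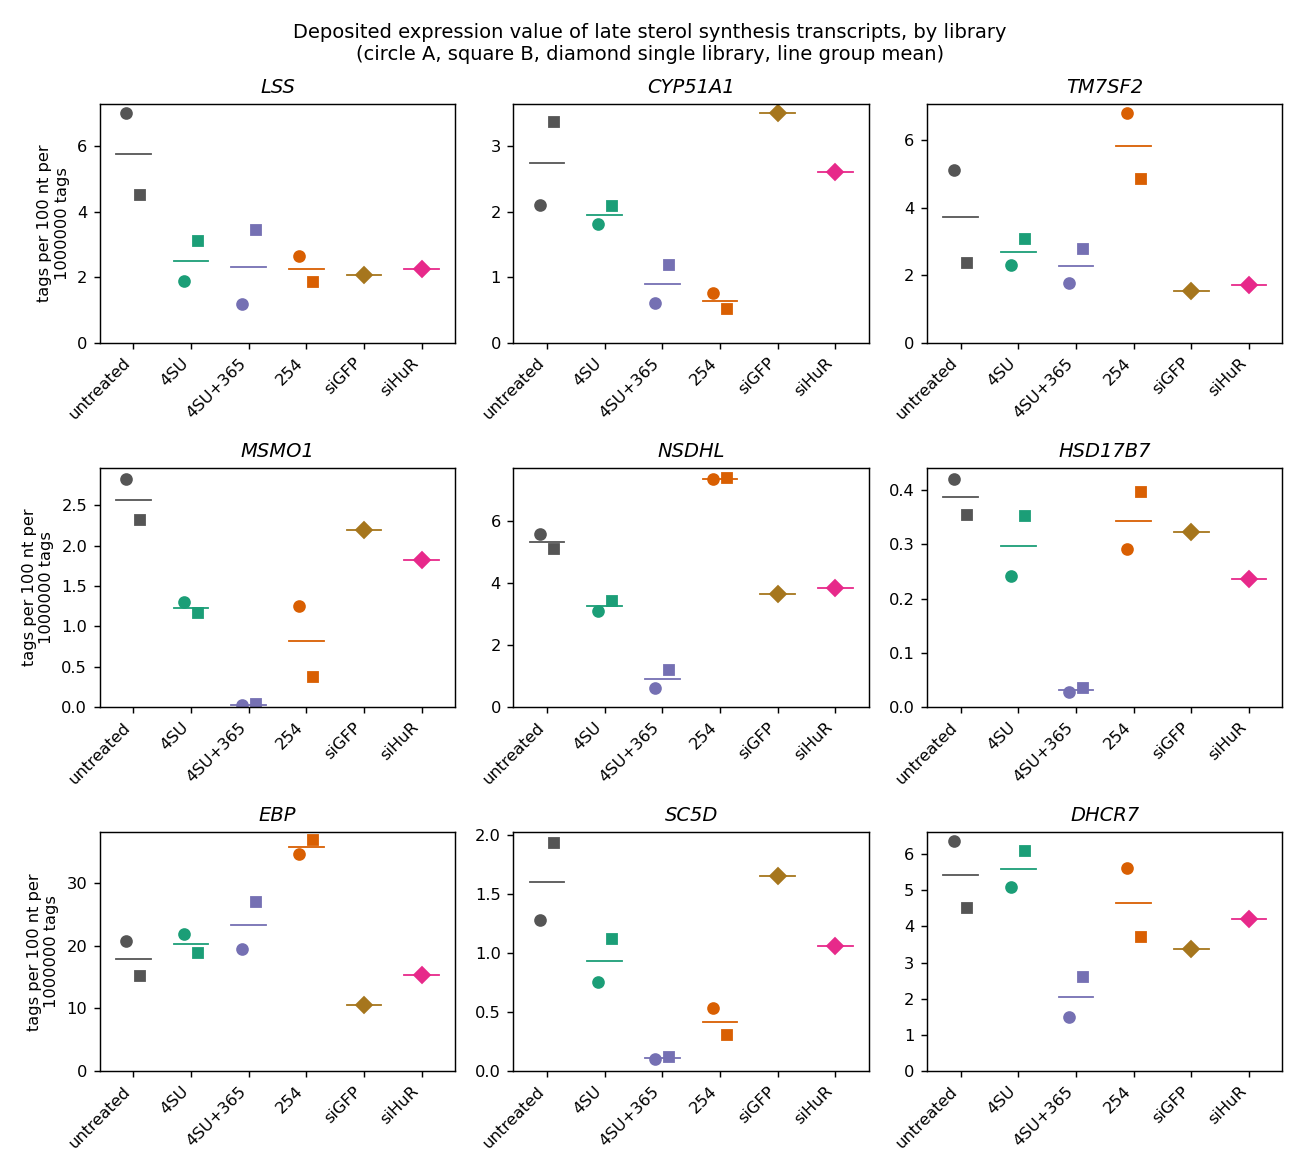
Deposited expression value (tags per 100 nt per 1000000 tags, vertical axes starting at 0) of each member in the 10 libraries, by group. Circles are library A, squares library B, diamonds the single siRNA libraries and lines group means; EBP reaches the highest values and MSMO1 lies near 0 in both libraries of 4SU with 365 nm.

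Growth with 4SU and no light was compared with untreated cells to see what the analogue alone did to these transcripts. LSS, the cyclase that makes lanosterol, was the only member called, and it was lower. Counts were 0 members higher and 1 lower of 9, against 3.85% of all tested genes higher and 3.69% lower. The median fold change of the members was -0.53, from -1.25 to 0.16, and that of all tested genes was 0.02. In 6 of 9 members both 4SU libraries lay below both untreated libraries, as they did in 24.3% of all tested genes. In the other 3 (TM7SF2, EBP and DHCR7) the groups overlapped.

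LSS (NM_001145437, 4390 nt) had 190.0 and 126 normalised CPM in untreated A and B and 54.0 and 78.8 in 4SU A and B. Both 4SU libraries were below both untreated ones, with means of 66.4 ± 17.5 against 158 ± 45.3 (SD, n = 2). Its fold change was -1.25 ± 0.36 (SE; adjusted p = 0.0225). The call depended on single libraries: it was -1.005 (adjusted p = 0.331) without 4SU A and -0.92 (adjusted p = 0.0832) without untreated A. On library totals it was -1.19 (adjusted p = 0.0543).

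CYP51A1 (NM_000786, 3208 nt), the cytochrome P450 that removes the first methyl group from lanosterol and the target of azole drugs in fungi, had 41.6 and 68.9 CPM untreated and 37.8 and 38.4 with 4SU. The 4SU values lay just under the lower untreated value, and the fold change of -0.53 ± 0.33 (SE; adjusted p = 0.36) was not called. MSMO1 (NM_006745, 2214 nt), the oxidase that starts removal of the methyl groups at C4, had 38.6 and 32.7 CPM untreated and 18.8 and 14.7 with 4SU. Its groups were well apart, yet its fold change of -1.10 ± 0.38 (SE; adjusted p = 0.0671) missed the threshold, which it passed without the expression filter (-1.15, adjusted p = 0.0457) and with the length trend removed (-1.25, adjusted p = 0.0187). NSDHL (NM_001129765, 1648 nt), the dehydrogenase that releases the carboxyl group MSMO1 leaves at C4, had 56.8 and 53.8 CPM untreated and 33.3 and 32.4 with 4SU. Each pair of libraries lay close together and the pairs did not overlap, with a fold change of -0.75 ± 0.32 (SE; adjusted p = 0.157), which was called with the length trend removed (-0.95, adjusted p = 0.0373). SC5D (NM_001024956, 7019 nt), the desaturase that makes the substrate of DHCR7, had 55.4 and 86.5 CPM untreated and 34.4 and 45.2 with 4SU, a fold change of -0.83 ± 0.33 (SE; adjusted p = 0.124). Without untreated A it was -1.11 (adjusted p = 0.014), a call.

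DHCR7 (NM_001360, 2665 nt), the reductase of the last step, had 105 and 76.4 CPM untreated and 88.2 and 93.1 with 4SU. Its 4SU values lay between the untreated ones, and its fold change was 0.00 ± 0.32 (SE; adjusted p = 0.999). EBP (NM_006579, 1191 nt) had 152 and 115 CPM untreated and 169 and 129 with 4SU, overlapping, with a fold change of 0.16 ± 0.36 (SE; adjusted p = 0.845). TM7SF2 (NM_003273, 1599 nt), a sterol reductase that acts right after CYP51A1 and shares that activity with LBR of the nuclear envelope, had 50.6 and 24.0 CPM untreated and 23.9 and 28.3 with 4SU. The untreated libraries differed by more than the groups did, and the fold change was -0.52 ± 0.34 (SE; adjusted p = 0.391). HSD17B7 (NM_016371, 1533 nt) had 3.98 and 3.46 CPM untreated and 2.27 and 3.01 with 4SU, a fold change of -0.47 ± 0.54 (SE; adjusted p = 0.656) on few tags.

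The earlier steps of the route, from acetyl-CoA to squalene epoxide, held 9 tested genes of 10 listed, of which 5 were called lower with 4SU and 0 higher, with a median of -1.32. SQLE, which makes squalene epoxide, changed by -2.88 ± 0.38 (SE; adjusted p = 2.23e-06), and IDI1, the isopentenyl isomerase, by -2.77 ± 0.35 (SE; adjusted p = 1.35e-06). HMGCS1, which makes HMG-CoA, changed by -2.36 ± 0.35 (SE; adjusted p = 1.86e-05). Of 12 tested genes of sterol sensing and uptake, 1 was called higher and 2 lower, with a median of -0.18. The higher gene was NPC1L1, a sterol importer, which had 2.79 and 1.86 CPM untreated and 19.9 and 20.4 with 4SU, a change of 3.07 ± 0.48 (SE; adjusted p = 4.08e-05). The lower ones were INSIG1, at -1.88 ± 0.34 (SE; adjusted p = 0.000303), and NPC1, the lysosomal cholesterol transporter, at -1.27 ± 0.33 (SE; adjusted p = 0.0127). Of 5 tested genes of export and storage 1 was called, SOAT1, which esterifies cholesterol, at -1.16 ± 0.36 (SE; adjusted p = 0.0412). Among 12 partners and relatives of the late enzymes, such as LBR and the electron donors POR and CYB5R3, 0 were called and the median was -0.04. Whether these lists differ from the late enzymes was not tested.

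**Figure D2:**
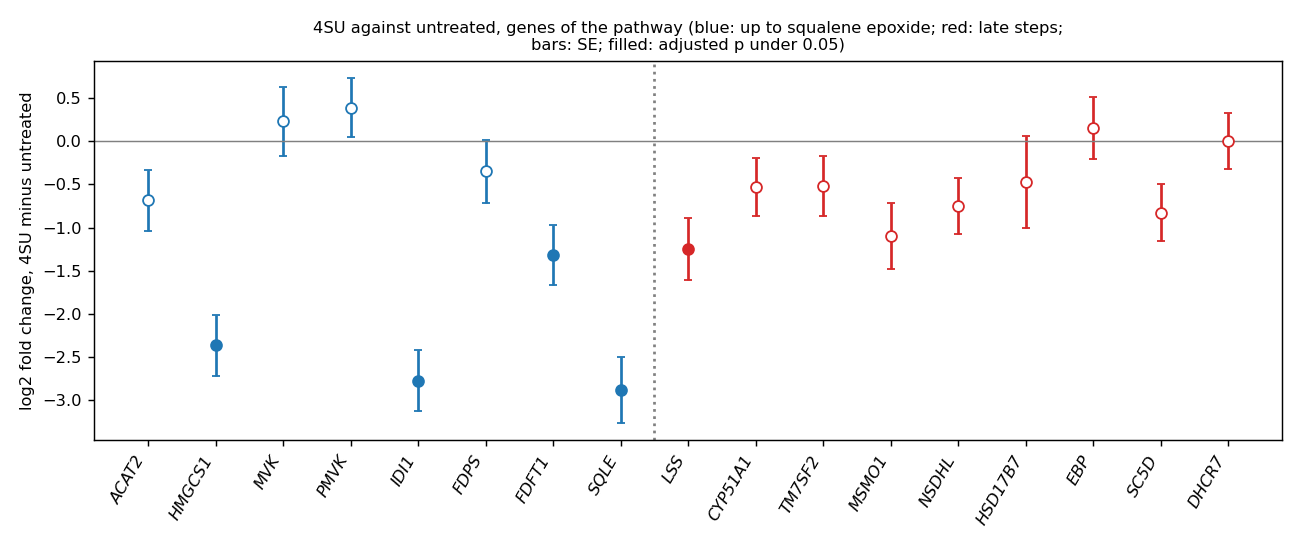
Log2 fold change, 4SU minus untreated, for genes of the sterol route in pathway order; blue marks the steps up to squalene epoxide and red the late enzymes, bars are SE and filled points passed an adjusted p of 0.05. Of the late enzymes LSS alone is filled, while 4 of the 8 earlier genes plotted are, with SQLE lowest at -2.88.

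Light at 365 nm on cells grown with 4SU was compared with 4SU alone. LSS, TM7SF2 and EBP rose, MSMO1 and SC5D fell, and MSMO1 was nearly lost. The counts were 3 higher and 2 lower of 9, beside 26.1% and 33.8% of all tested genes. The members' median was 0.45, from -3.65 to 2.09, and that of all genes was -0.50. On library totals the split was 0 higher and 6 lower of 9, beside 1019 higher and 9965 lower of all 13731 tested genes. There 5 of the 9 fold changes turned sign: LSS to -0.12, CYP51A1 to -1.12, TM7SF2 to -0.25, NSDHL to -1.84 and DHCR7 to -1.45. Of these, CYP51A1, NSDHL and DHCR7 were called lower, while LSS and TM7SF2 were not called.

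MSMO1 had 18.8 and 14.7 CPM with 4SU alone and 1.12 and 1.4 after 365 nm, the latter from 1 and 2 tags. Neither irradiated library came near those without light, and the fold change was -3.65 ± 0.70 (SE; adjusted p = 3e-05). Over the pooled tags, 3 against 144, this ratio is -3.65 on the log2 scale, and counting error alone allows -5.94 to -2.07 (95% exact interval). The fall was called under each alternative tried, library totals included.

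EBP had 169 and 129 CPM with 4SU alone and 627 and 645 after 365 nm. Both irradiated libraries were several times above both others and lay close together (636 ± 12.8 against 149 ± 28.2, SD, n = 2). It rose by 2.09 ± 0.37 (SE; adjusted p = 9.48e-06), which was 0.18 (adjusted p = 0.672) on library totals. LSS had 54.0 and 78.8 CPM and then 140.4 and 304. The irradiated libraries were far apart but both above the others, and the change was 1.75 ± 0.36 (SE; adjusted p = 9.46e-05). TM7SF2 had 23.9 and 28.3 CPM and then 76.4 and 88.8, 2 pairs that did not overlap, and a change of 1.66 ± 0.36 (SE; adjusted p = 0.000134). SC5D had 34.4 and 45.2 CPM and then 19.1 and 17.5, a change of -1.13 ± 0.39 (SE; adjusted p = 0.0117). This call was lost without 4SU with 365 nm A (-1.19, adjusted p = 0.0517) or B (-1.06, adjusted p = 0.11) and without 4SU B (-0.92, adjusted p = 0.105), with RLE factors (-0.88, adjusted p = 0.0513) and by DESeq2 (-0.95, adjusted p = 0.0663). With the trend over transcript length removed it was -0.085 (adjusted p = 0.852).

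CYP51A1 had 52.8 and 76.2 CPM after 365 nm, both above the 4SU values of 37.8 and 38.4. Its fold change of 0.77 ± 0.35 (SE; adjusted p = 0.0516) lay at the threshold and was 1.00 (adjusted p = 0.0499) without 4SU with 365 nm A, 0.85 (adjusted p = 0.0419) without 254 nm A, 0.77 (adjusted p = 0.0187) without untreated A and 0.77 (adjusted p = 0.019) without untreated B. It was also called higher with RLE factors (1.03, adjusted p = 0.0114), the filter of 5 CPM (0.78, adjusted p = 0.0483), the compared groups alone (0.92, adjusted p = 0.00619), DESeq2 (0.95, adjusted p = 0.0354) and the length trend removed (1.36, adjusted p = 0.000869). On library totals, in contrast, CYP51A1 was called lower, as were DHCR7 and NSDHL. DHCR7 had 108 and 138 CPM, above its 4SU values, with a fold change of 0.45 ± 0.33 (SE; adjusted p = 0.237), or 0.81 (adjusted p = 0.0251) with the length trend removed. NSDHL had 26.9 and 39.9 CPM, 1 library on either side of its 4SU values, with a fold change of 0.05 ± 0.35 (SE; adjusted p = 0.915). HSD17B7 had 1.12 and 1.4 CPM, from 1 and 1.5 tags (the latter rounded to 2), and a fold change of -1.04 ± 0.89 (SE; adjusted p = 0.31). Counting error alone allows -3.44 to 0.66 for HSD17B7 (95% exact interval), and on library totals it was called, at -2.87 (adjusted p = 0.00131).

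Among the lists around the late enzymes, partners and relatives had 6 of 12 higher and 0 lower after 365 nm, with a median of 0.77. CYB5R3, which passes electrons to cytochrome b5, changed by 3.56 ± 0.36 (SE; adjusted p = 7.56e-10) and EBPL, a relative of EBP, by 2.88 ± 0.38 (SE; adjusted p = 3.27e-08). PGRMC1, a membrane protein that binds sterol enzymes, changed by 2.77 ± 0.41 (SE; adjusted p = 2.76e-07). The earlier steps had 3 of 9 higher and 4 lower (median -0.11), sensing and uptake 1 of 12 higher and 4 lower (-0.71), and export and storage 0 of 5 higher and 2 lower (-1.53). NPC2, the lysosomal partner of NPC1, changed by 3.77 ± 0.43 (SE; adjusted p = 2.13e-09), and MYLIP, which marks the LDL receptor for degradation, by -1.97 ± 0.50 (SE; adjusted p = 0.000974).

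Light at 254 nm without 4SU was compared with untreated cells. TM7SF2, NSDHL and EBP rose, and CYP51A1 and SC5D fell. That made 3 higher and 2 lower of 9, beside 25.2% and 28.0% of all tested genes. The members' median was 0.62, from -1.27 to 1.88, and that of all genes -0.14. On library totals the split was 1 higher and 4 lower, beside 1384 and 6462 of all 13731 tested genes. There HSD17B7 was at -0.17 and DHCR7 at -0.23, both of opposite sign to the TMM values. With the length trend removed the split was 0 higher and 2 lower, beside 2772 and 2174 of all 13731 tested genes.

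EBP had 152 and 115 CPM untreated and 419 and 564 after 254 nm, well apart. It changed by 1.88 ± 0.37 (SE; adjusted p = 5.25e-05), and by 0.67 (adjusted p = 0.074) with the length trend removed. TM7SF2 had 50.6 and 24.0 CPM and then 111 and 99.6, both above the untreated libraries, a change of 1.49 ± 0.34 (SE; adjusted p = 0.000355). With the length trend removed it was 0.69 (adjusted p = 0.0792), and on library totals 0.63 (adjusted p = 0.169). NSDHL had 56.8 and 53.8 CPM and then 124 and 157, again without overlap. Its change was 1.34 ± 0.32 (SE; adjusted p = 0.000586), 0.54 (adjusted p = 0.15) with the length trend removed and 0.46 (adjusted p = 0.319) on library totals.

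CYP51A1 had 41.6 and 68.9 CPM untreated and 24.5 and 21.0 after 254 nm. Both irradiated libraries were below both untreated ones, the change was -1.27 ± 0.35 (SE; adjusted p = 0.00247), and it was called under each alternative tried. SC5D had 55.4 and 86.5 CPM and then 38.2 and 27.3, lower in both libraries, a change of -1.11 ± 0.34 (SE; adjusted p = 0.0063). It lost its call without 254 nm B (-0.89, adjusted p = 0.109) or untreated B (-0.75, adjusted p = 0.0691), and with the length trend removed it was of opposite sign, 0.38 (adjusted p = 0.334).

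The other 4 members were not called after 254 nm. LSS had 118 and 105 CPM, both under its untreated values, and a fold change of -0.50 ± 0.35 (SE; adjusted p = 0.231), 0.43 (adjusted p = 0.327) with the length trend removed and -1.36 (adjusted p = 0.00196), a call, on library totals. MSMO1 had 28.2 and 10.7 CPM, which differed from each other more than the higher one did from untreated, and a fold change of -0.87 ± 0.39 (SE; adjusted p = 0.0589). Without 254 nm A it was -1.67 (adjusted p = 0.00962) and without untreated B -0.98 (adjusted p = 0.042), both calls. It was also called on library totals (-1.68, adjusted p = 0.000564), without the expression filter (-0.95, adjusted p = 0.0436) and with the length trend removed (-1.15, adjusted p = 0.0128). DHCR7 had 152 and 127 CPM and a fold change of 0.62 ± 0.33 (SE; adjusted p = 0.103), or 0.87 (adjusted p = 0.0395) without untreated A. HSD17B7 had 4.54 and 7.81 CPM and a fold change of 0.71 ± 0.53 (SE; adjusted p = 0.263). LBR, the other enzyme with the activity of TM7SF2, was called in the opposite direction to it, with 177 and 243 CPM untreated, 51.8 and 29.8 after 254 nm and a change of -2.36 ± 0.37 (SE; adjusted p = 2.13e-06). The 2 transcripts differ in length, 3806 nt for LBR and 1599 for TM7SF2. All genes of 3284 to 3926 nt had a median of -0.62 after 254 nm, and those of 1533 to 1926 nt 0.81. The part of length in this contrast was not tested. After 365 nm LBR was not called (-0.33 ± 0.35, SE; adjusted p = 0.417). Partners and relatives had 5 of 12 higher and 2 lower in all (median 0.48). The earlier steps had 4 of 9 higher and 4 lower (0.40), sensing and uptake 1 of 12 higher and 5 lower (-0.86), and export and storage 2 of 5 higher and 2 lower (-0.50). The 2 higher genes were the oxysterol receptors NR1H2, at 1.96 ± 0.38 (SE; adjusted p = 4.95e-05), and NR1H3, at 1.66 ± 0.45 (SE; adjusted p = 0.0018).

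**Figure D3:**
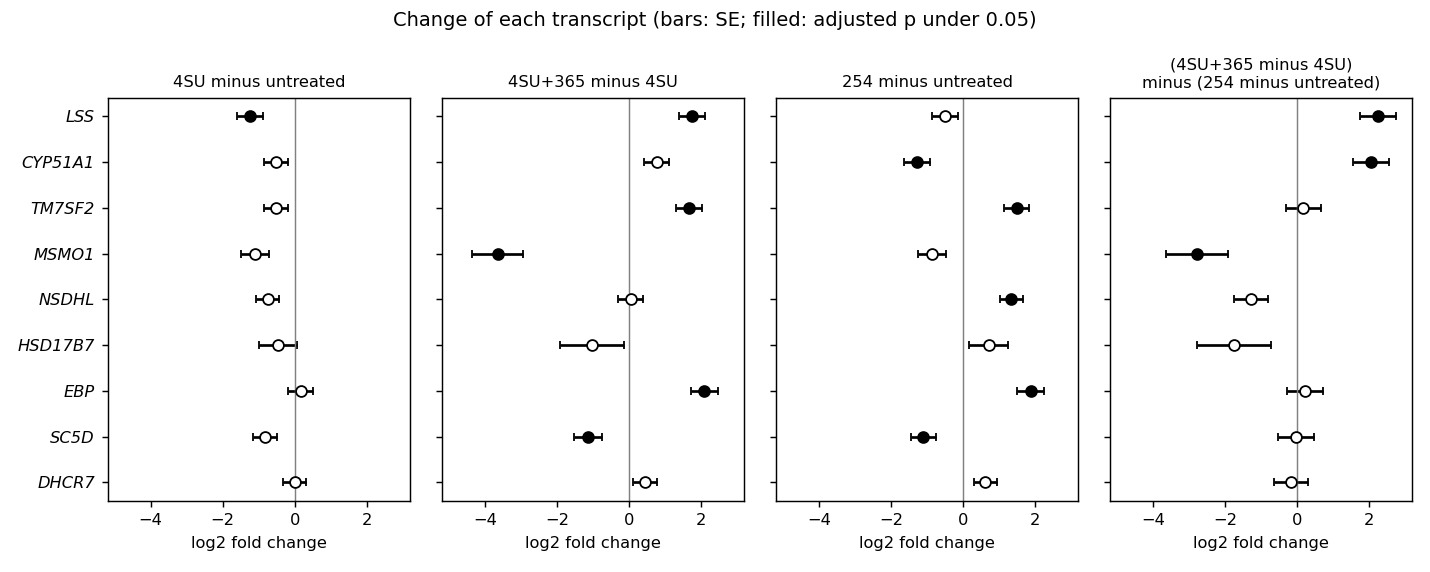
Log2 fold change of each member with 4SU, after 365 nm in 4SU cells and after 254 nm (horizontal axes; bars SE, filled points adjusted p under 0.05). The last panel is the change after 365 nm in 4SU cells minus that after 254 nm, with LSS, CYP51A1 and MSMO1 filled. EBP and TM7SF2 lie to the right after either light and MSMO1 far to the left after 365 nm; on library totals LSS, CYP51A1, TM7SF2, NSDHL and DHCR7 turn sign after 365 nm, and HSD17B7 and DHCR7 after 254 nm.

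Whether crosslinking acted differently in the 2 settings was tested as the change after 365 nm in 4SU cells minus the change after 254 nm. Wavelength and 4SU go together here and cannot be told apart. Of the members, LSS and CYP51A1 were higher and MSMO1 lower in this difference, 2 and 1 of 9 beside 9.99% and 7.09% of all tested genes. The members' median was -0.02 and that of all genes -0.15. On library totals, where the median of all genes was -1.18, the split was 0 higher and 3 lower, beside 494 and 4459 of all 13731 tested genes.

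For LSS the difference was 2.25 ± 0.51 (SE; adjusted p = 0.00141), between a rise after 365 nm and the uncalled value after 254 nm given above. It was 1.58 (adjusted p = 0.0704) without 4SU with 365 nm B and 1.24 (adjusted p = 0.0696) on library totals. For CYP51A1 the difference was 2.04 ± 0.49 (SE; adjusted p = 0.00307), and it was 1.74 (adjusted p = 0.0573) without 4SU with 365 nm B and 1.00 (adjusted p = 0.171) on library totals. For MSMO1 the difference was -2.78 ± 0.86 (SE; adjusted p = 0.0196). It was -2.67 (adjusted p = 0.0932) and -2.98 (adjusted p = 0.141) without 4SU with 365 nm A and B, -1.90 (adjusted p = 0.192) without 254 nm A and -2.63 (adjusted p = 0.0712) by DESeq2. Without 4SU with 365 nm B, therefore, 0 of the 3 were called by edgeR. EBP and TM7SF2, which rose after either light, had differences of 0.21 ± 0.51 (SE; adjusted p = 0.81) and 0.17 ± 0.48 (SE; adjusted p = 0.84). Neither SE is small enough to show that they responded alike.

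The 2 crosslinked groups were also compared with each other, 4SU with 365 nm minus 254 nm. LSS and CYP51A1 were higher and MSMO1, NSDHL and HSD17B7 lower in the 365 nm group, 2 and 3 of 9 beside 15.2% and 12.5% of all tested genes (median -0.35 for members, -0.10 for all genes). On library totals the split was 0 higher and 6 lower, beside 631 and 5885 of all 13731 tested genes. NSDHL had 26.9 and 39.9 CPM with 4SU and 365 nm and 124 and 157 with 254 nm, with no overlap and a difference of -2.05 ± 0.35 (SE; adjusted p = 2.08e-05). MSMO1 differed by -3.88 ± 0.70 (SE; adjusted p = 4.77e-05), and these 2 calls were kept under each alternative tried. LSS, at 1.00 ± 0.36 (SE; adjusted p = 0.0326), was not called without 4SU with 365 nm B (0.33, adjusted p = 0.665), 254 nm A (1.10, adjusted p = 0.11) or 254 nm B (0.93, adjusted p = 0.159), nor on library totals (0.045, adjusted p = 0.94). CYP51A1, at 1.51 ± 0.37 (SE; adjusted p = 0.00166), was not called without 4SU with 365 nm B (1.21, adjusted p = 0.0774) or on library totals (0.52, adjusted p = 0.325). HSD17B7, at -2.22 ± 0.83 (SE; adjusted p = 0.0417) on 3 against 26 tags, was not called when 4SU with 365 nm A (-2.11, adjusted p = 0.151) or B (-2.41, adjusted p = 0.193), 4SU A (-2.22, adjusted p = 0.0544) or B (-2.21, adjusted p = 0.0546), or 254 nm B (-1.79, adjusted p = 0.204) was left out, nor with RLE factors (-2.04, adjusted p = 0.0664) or by DESeq2 (-2.12, adjusted p = 0.165). The count of called members was 2 without 4SU with 365 nm B and 3 without 254 nm B.

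Set against untreated cells, 4SU with 365 nm gave 2 members higher and 2 lower of 9, beside 26.3% and 32.6% of all tested genes. The members' median was 0.24 and that of all genes -0.40. These values are the sums of the 4SU and 365 nm steps and share their libraries. EBP was higher by 2.25 ± 0.37 (SE; adjusted p = 2.77e-06) and TM7SF2 by 1.14 ± 0.35 (SE; adjusted p = 0.00494). MSMO1 was lower, at -4.75 ± 0.66 (SE; adjusted p = 8.18e-08) on 3 against 317 tags, and so was SC5D, at -1.96 ± 0.39 (SE; adjusted p = 3.93e-05). On library totals the split was 0 higher and 7 lower, beside 1047 and 9673 of all 13731 tested genes, with EBP at 0.37 and TM7SF2 at -0.73. TM7SF2 was not called without 4SU with 365 nm B (1.03, adjusted p = 0.065) or untreated B (0.71, adjusted p = 0.0821), nor with the length trend removed (0.42, adjusted p = 0.277). With that trend removed SC5D was -0.73 (adjusted p = 0.0767).

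Transcript length moved with the changes after crosslinking, and its part in them was not tested beyond the fit with the trend removed. Over all tested genes the Spearman correlation of length with the fold change was -0.45 after 365 nm and -0.65 after 254 nm. Over the 9 members, which share their libraries, it was -0.23 and -0.83, given as a description. The shortest genes, up to 1050 nt, had median fold changes of 1.88 and 1.78, and those of at least 6311 nt had -1.52 and -1.67. By deposited length EBP is the shortest member, and it had the largest positive fold change after either light. SC5D is the longest by that measure and fell after both. This ranking depends on the deposited lengths, which the fit with the trend removed also used. For 4 members the GENCODE transcript differed from them by more than 5%. It had 1775 nt against 1191 for EBP, 2258 against 7019 for SC5D, 1190 against 1533 for HSD17B7 and 1722 against 1599 for TM7SF2. After 365 nm LSS and MSMO1 had the largest gaps to the median of their length bin. LSS changed by 1.75 where genes of 3927 to 4766 nt had a median of -1.13, and MSMO1 by -3.65 where genes of 1927 to 2322 nt had -0.25. Other members also lay apart from their bin's median, among them CYP51A1 (0.77 against -0.80), TM7SF2 (1.66 against 0.36), EBP (2.09 against 0.87) and HSD17B7 (-1.04 against 0.36). Base content could be read for the 5 members with a GENCODE transcript within 5% of the deposited length. Uridine made up 33.4% of MSMO1, 29.9% of CYP51A1, 23.2% of DHCR7, 22.3% of NSDHL and 21.5% of LSS. MSMO1 thus had the highest uridine content and the deepest fall after 365 nm of these 5, whereas CYP51A1, the next in uridine, had a positive fold change. The part of uridine content was not tested.

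**Figure D4:**
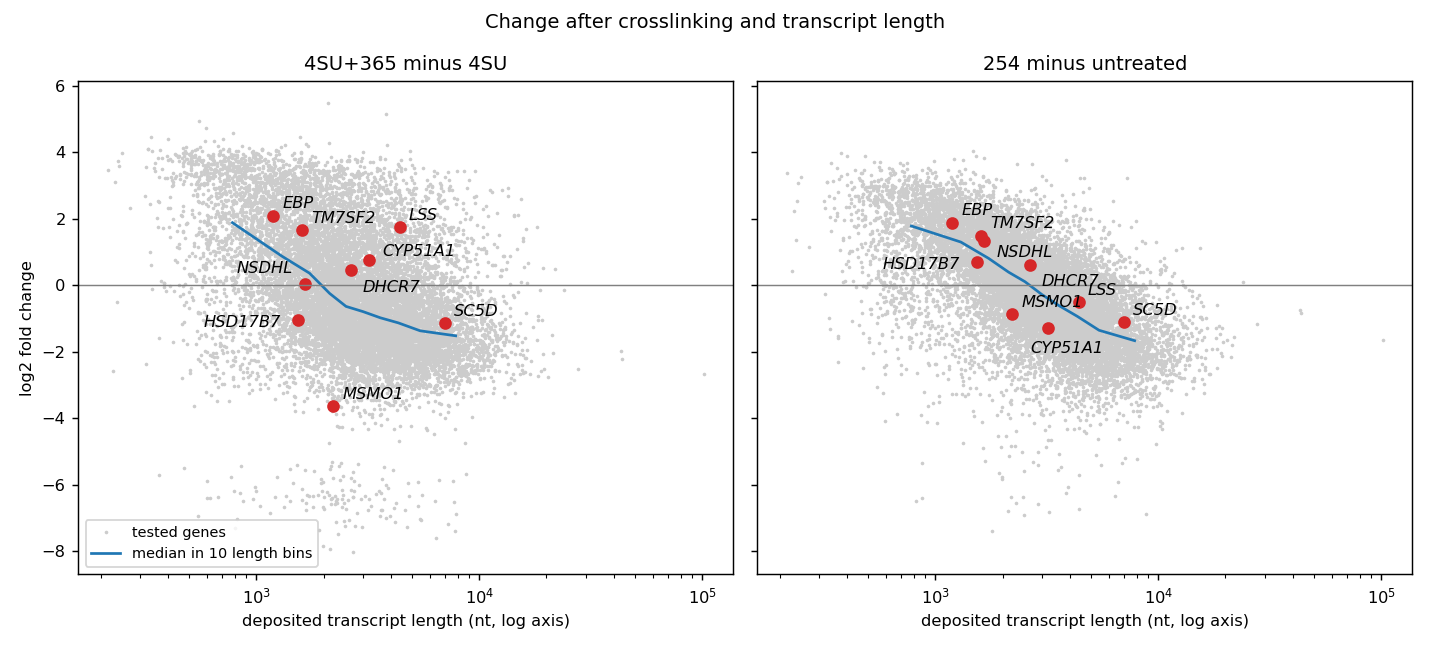
Log2 fold change after 365 nm in 4SU cells and after 254 nm against deposited transcript length (nt, log axis). Grey points are all 13731 tested genes, the blue line is the median in 10 length bins and labelled points are the 9 members; at 365 nm LSS lies above and MSMO1 below the line.

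The siRNA libraries compared HuR knockdown with a GFP control, 1 library each, so no test was made and intervals cover counting error only. The targeted transcript, ELAVL1, went from 1905 to 638 tags, a log2 ratio of -1.53 (95% interval -1.66 to -1.40). No member reached a 2-fold difference (0 of 9), where 13.2% of the 17798 genes with at least 10 tags did. EBP had 1090 tags with GFP siRNA and 1647 with HuR siRNA, a ratio of 0.64 (95% interval 0.53 to 0.76). DHCR7 had 779 and 1011, a ratio of 0.43 (95% interval 0.29 to 0.56). SC5D had 1009 and 673, a ratio of -0.54 (95% interval -0.68 to -0.39), and CYP51A1 976 and 753, a ratio of -0.33 (95% interval -0.46 to -0.19). EBP thus stood furthest above and SC5D furthest below the control. LSS had a ratio of 0.23 (95% interval 0.09 to 0.37) and NSDHL of 0.18 (95% interval 0.00 to 0.35). The intervals of TM7SF2 at 0.26 (95% interval -0.01 to 0.53), MSMO1 at -0.16 (95% interval -0.37 to 0.05) and HSD17B7 at -0.33 (95% interval -1.03 to 0.36) included 0. On library totals the interval of MSMO1 excluded 0, with a ratio of -0.26 (-0.47 to -0.058), while those of LSS, 0.13 (-0.012 to 0.27), and NSDHL, 0.075 (-0.098 to 0.25), included it. HSD17B7 rested on 43 and 33 tags. MSMO1 kept 421 and 364 tags in these libraries, unlike the 1 and 2 tags after 4SU with 365 nm.

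**Figure D5:**
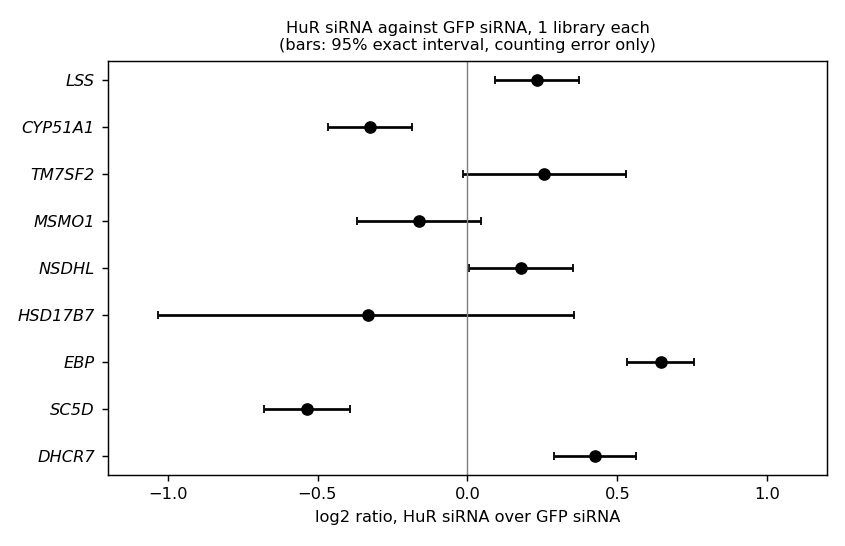
Log2 ratio of HuR siRNA over GFP siRNA for each member, 1 library each, with 95% exact intervals for counting error. All 9 points lie within 1 log2 unit of 0, with EBP at 0.64 and SC5D at -0.54 at the ends.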

How the data were processed

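Polyadenylated RNA of HEK293 was sequenced in 10 libraries. The deposited files give expected counts of tags per transcript and a length-scaled expression value, tags per 100 nt per 1000000 tags, per the file headers and a recomputation from counts and length. Per the file values, the deposited expected counts are not normalized, and where counts are fractional, tags had been divided between transcripts. Which aligner and build made them is not given in the sources used here. Counts were rounded to whole tags, and accessions were named from RefSeq tables (15886 of 25005 transcripts) or GENCODE (134). The 8985 unnamed transcripts stayed in the fit, and the 10 genes with several transcripts were summed. The 8 replicated libraries entered 1 edgeR 4.0.16 quasi-likelihood fit (R 4.3.3, TMM factors, filterByExpr, a mean per group; 4 residual degrees of freedom, common biological coefficient of variation 0.244) with 6 contrasts, two-sided tests and Benjamini-Hochberg adjustment over all 13731 genes. The SE was approximated from the fold change and the F statistic (fold change over root F). The siRNA pair was described by ratios with exact intervals. Intervals cover counting error only, since no molecular identifiers are described.

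The text names all 9 members and up to 4 genes of each pathway list, those called with the largest change with 4SU, then in the other comparisons. LBR is named beyond this as the relative of TM7SF2, and was chosen after its values were seen. Some genes that the rule takes are left out of the text. Members and lists were chosen with earlier results of these data known. Alternatives were RLE factors, library totals, no filter, a filter of 5 CPM, a replicate block, a fit with the trend over transcript length removed, the compared groups alone, DESeq2 1.42.0, and leaving out each library. Proteins of the members and MVD were not analysed here.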

Additional observations from a re-analysis of the deposited data

Results flagged for a closer look

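In the main analysis the crosslinking effect at 365 nm in 4SU cells differed from that at 254 nm for 3 members, in a test of the difference itself. The difference in log2 fold change was 2.25 for LSS, 2.04 for CYP51A1 and -2.78 for MSMO1 (edgeR quasi-likelihood test, adjusted p = 0.00141, 0.00307 and 0.0196). None of the 3 calls held under every alternative. On library totals LSS was 1.24 (adjusted p = 0.0696) and CYP51A1 1.00 (adjusted p = 0.171), by the same test. By DESeq2 MSMO1 was -2.63 (adjusted p = 0.0712), and it rests on 3 pooled tags after 365 nm. Without 4SU with 365 nm B the differences were 1.58, 1.74 and -2.98. Groups of 2 libraries are too small for a check of single libraries that stand apart.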

How the results depend on the processing

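Of 23 called member values, 5 kept their call and direction under every alternative run (CYP51A1 after 254 nm, MSMO1 in the 3 comparisons of the 365 nm group with another group, and NSDHL at 365 nm against 254 nm), and 9 did when library totals were set aside. The count of members called with 4SU, 1 in the main analysis, was 0 on library totals, 2 without the expression filter, 3 with the length trend removed and 0 to 1 leaving out each library. All these calls were lower. Over all genes 236 were lower on library totals, 599 of 23036 without the filter and 802 with the length trend removed, against 507. After 254 nm it was 2, not 5, with the length trend removed, and for 4SU with 365 nm 7, not 4, on library totals. Leaving out each library gave 2 to 5 members at 365 nm against 254 nm and 0 to 4 in the difference of the crosslinking effects. A library left out leaves a group with 1 sample, assumed to vary like the others. With the replicate letter as a replicate block, 2 members were called with 4SU, with MSMO1 added at -1.09 (adjusted p = 0.0185), and over all genes 862 were higher and 831 lower against 528 and 507. After 365 nm the block gave 4 members higher and 2 lower, adding CYP51A1 at 0.75 (adjusted p = 0.0433), after 254 nm 3 and 3, adding MSMO1 at -0.94 (adjusted p = 0.0188). The same letters correlated between groups from -0.081 to 0.35, the highest being untreated with 4SU. Since the block added member calls in other comparisons too, a link between its calls and this correlation was not tested. In 3 of the 6 pairs of groups the correlation was under 0.1. The letters were not taken as pairs in the main fit because the labels do not say what they share.

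Signs turned with 4SU for DHCR7 (-0.018 with RLE factors, -0.044 without the filter, -0.11 with the length trend removed, -0.035 by DESeq2, -0.21 to 0.25 leaving out libraries), EBP (-0.082 with the length trend removed, -0.048 to 0.38 leaving out libraries) and TM7SF2 (-0.95 to 0.13 leaving out libraries). On library totals they turned after 365 nm for LSS (-0.12), CYP51A1 (-1.12), TM7SF2 (-0.25), NSDHL (-1.84) and DHCR7 (-1.45), after 254 nm for HSD17B7 (-0.17) and DHCR7 (-0.23), and for TM7SF2 in 4SU with 365 nm (-0.73). NSDHL after 365 nm also turned to -0.024 without the filter, -0.46 with the length trend removed and -0.28 to 0.28 leaving out libraries. With the length trend removed, LSS, HSD17B7 and SC5D after 254 nm were 0.43, -0.18 and 0.38. Apart from the trend and scaling fits, whose construction moves every fold change, the cause was not tested. Depth limits HSD17B7, and MSMO1 in 4SU with 365 nm, the group in which each had 3 pooled tags.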
